A study of Mus musculus with 36 samples.

Results

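The 10 genes described here are Tm4sf1, Adcy2, Ankmy2, Ano1, Astn1, Cbx6, Dguok, Kcnab1, Mylip and Nrbp1, which carry a seed match to the miR-17~92 microRNA cluster in their 3′ untranslated region (3′ UTR) and were higher in mouse gonads without the cluster than in control gonads in XX and in XY embryos at both stages sampled. They were selected on their log2 fold changes and false discovery rates in those KO comparisons and on the match, out of 21699 genes in each count table, so their differences between KO and control are given below as a description, with no test. Of 13784 genes tested at both stages, 21 (0.152%) were called higher in all 4 KO comparisons, and 14 of these held a match by the search used here. The 4 genes with a match that are not described are B4galnt4, Pcdhb19, Spryd3 and Tor1b, and Atrnl1, Ccdc80, Cst12, P3h2, Pnma2 and Reck were called without a match. The remaining gene, Mir17hg, is the non-coding host gene of the cluster and has no 3′ UTR.

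RNA was sequenced in bulk from XX and XY embryos of 2 genotypes, KO and control, at the embryonic stages E11.5 and E12.5 (days after mating), with 3 libraries in each of the 8 groups and 24 libraries in all. KO embryos (labelled as mutant) were homozygous for the deleted miR-17~92 allele and carried the Tg(CAG-cre)1Nagy transgene, whose CAG promoter drives Cre throughout the embryo, so the deletion was not limited to the gonad or to 1 of its cell types. Controls are labelled as WT, and the labels give no further allele for them. E11.5 libraries came from gonads with the adjoining mesonephros and E12.5 libraries from gonads alone, with different library kits, so levels at the 2 stages were not tested against each other. Each library pooled 2 pairs of gonads, and in such bulk RNA fewer cells of a type and less RNA per cell cannot be told apart. Library totals ran from 17150620 to 34077443 counts at E11.5 and from 11877379 to 44155275 at E12.5, and levels are given as counts per 1000000 counts of the library (CPM) and scaled by the trimmed mean of M-values (TMM).

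MicroRNAs guide Argonaute proteins to mRNAs that pair with bases 2 to 8 of the microRNA, the seed, and such pairing in a 3′ UTR usually lowers the stability and translation of the mRNA. The miR-17~92 cluster is transcribed as 1 precursor that yields 6 mature microRNAs of 4 seed families, and is known for its roles in growth, survival and organ development. In the fetal gonad, supporting cells become Sertoli cells in XY embryos, after the transient expression of Sry, or pre-granulosa cells in XX embryos.

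The 6 hairpins lie at chr14:115043671-115044506 (GRCm38, plus strand), within Mir17hg. Their mature strands from RefSeq are shown 5′ to 3′ because every match below was searched with them, with the seed in capitals:
miR-17-5p: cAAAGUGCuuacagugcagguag
miR-20a-5p: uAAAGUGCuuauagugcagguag
miR-18a-5p: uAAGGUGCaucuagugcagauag
miR-19a-3p: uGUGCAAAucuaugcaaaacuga
miR-19b-3p: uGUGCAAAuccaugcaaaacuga
miR-92a-3p: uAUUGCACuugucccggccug
The first 2 share a seed (miR-17 family), as do miR-19a-3p and miR-19b-3p (miR-19 family), while miR-18a-5p and miR-92a-3p each stand for a family of their own. The 7-base matches searched on the transcript strand were GCACTTT for miR-17, GCACCTT for miR-18, TTTGCAC for miR-19 and GTGCAAT for miR-92, and a match followed by A was called an 8-base match. The miR-19 and miR-17 or miR-18 matches can overlap by the bases GCAC.

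The 10 genes held 18 matches, 5 of them of 8 bases, and 5 genes held matches of more than 1 family. A miR-19 match was present in 7 genes, a miR-18 match in 5, a miR-17 match in 3 and a miR-92 match in 2. Among the 13203 genes tested at both stages with an annotated 3′ UTR, 35.3% held any match, 14.4% an 8-base match, 14.1% a miR-19 match, 10.04% a miR-18 match, 15.3% a miR-17 match and 8.32% a miR-92 match. A match was a condition of the choice, so these shares are the background and not a comparison. A match is a stretch of letters and not a shown site of binding.

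Some sites that sit next to each other or within short 3′ UTRs are shown with 12 bases before and 6 or 5 after the 7- or 8-base match in capitals, on the transcript strand:
Tm4sf1 miR-19: gtgttgtgagacTTTGCACcttgtg
Tm4sf1 miR-18: ttgtgagactttGCACCTTgtgcca
Nrbp1 miR-17: ttcctcccctctGCACTTTgtttac
Nrbp1 miR-19: ttgtttacttgtTTTGCACAgacgt
Adcy2 miR-17: ggaaggtaccacGCACTTTctgact
Ankmy2 miR-17: gaattgttgagaGCACTTTgaaccc
In Tm4sf1 (chr3:57285611-57301988, minus strand) the miR-19 match at chr3:57287675-57287681 and the miR-18 match at chr3:57287672-57287678 shared 4 bases and began at bases 75 and 78 of the 3′ UTR. In Nrbp1 (chr5:31240864-31251566, plus strand) the miR-17 match at chr5:31251303-31251309 and the 8-base miR-19 match at chr5:31251320-31251327 were separated by 10 bases. Dguok (chr6:83480217-83506969, minus strand) had the shortest 3′ UTR of the 10, with 216 bases, and held 1 match, of miR-18. Matches were found in 4.87% of genes with a 3′ UTR within 20% of that length, against 11.4% of those as long as the Nrbp1 3′ UTR (437 bases). The matches of Adcy2 (chr13:68620664-68620670, minus strand) and Ankmy2 (chr12:36196955-36196961, plus strand) began at bases 50 and 554 of 3′ UTRs of 677 and 890 bases.

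Besides Tm4sf1 and Nrbp1, miR-19 matches were held by Ano1, Kcnab1, Astn1, Mylip and Cbx6. Except for that of Cbx6, they are shown in the same form, with the miR-92 and miR-18 matches of Mylip:
Ano1 miR-19, first: tttcttctcattTTTGCACAaggcc
Ano1 miR-19, second: aggcttccaaggTTTGCACtgtttg
Kcnab1 miR-19: aaggggcctagcTTTGCACtcagaa
Astn1 miR-19: actgaggctccaTTTGCACAcactg
Mylip miR-19: tgcatttgtttcTTTGCACAgacat
Mylip miR-92: tgacctcatcggGTGCAATActagc
Mylip miR-18: gcccaaccgtggGCACCTTttagga
Ano1 (chr7:144588549-144751974, minus strand) held both miR-19 matches in its 3 protein-coding transcripts with a 3′ UTR, at chr7:144589812-144589819 and chr7:144588798-144588804. Kcnab1 (chr3:65109384-65378223, plus strand) held 1 match, at chr3:65377666-65377672. The miR-92 and miR-19 matches of Mylip (chr13:45389742-45412022, plus strand), at chr13:45411710-45411717 and chr13:45411824-45411831, were 106 bases apart and in 1 of its 2 transcripts, and the miR-18 match at chr13:45410834-45410840 was in both. The Astn1 match at chr1:158689965-158689972, and a miR-18 and a miR-92 match further along, were in 2 of its 6 transcripts (chr1:158362273-158691781, plus strand). Cbx6 (chr15:79823896-79834688, minus strand), with the longest 3′ UTR of the 10 (4520 bases over all transcripts), held a miR-18 and a miR-19 match in 1 of its 3 transcripts, and 72.0% of genes with a 3′ UTR of like length held some match.

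**Figure D1:**
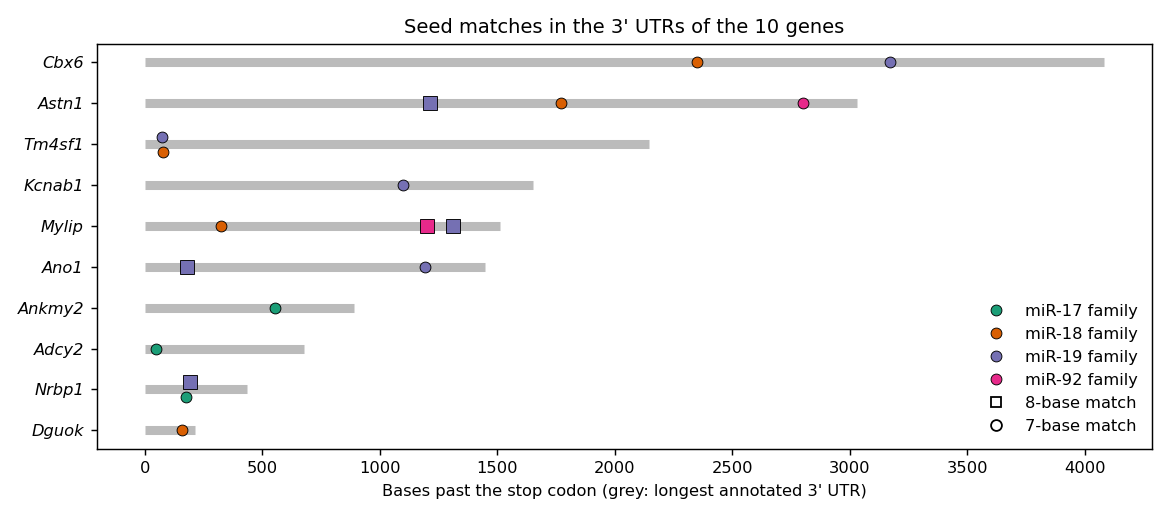
Positions of the 18 seed matches along the longest annotated 3′ UTR of each of the 10 genes, in bases past the stop codon (x axis), with colours for the 4 seed families, squares for 8-base and circles for 7-base matches. The 2 matches of Tm4sf1 and those of Nrbp1 are drawn above and below the line because they lie side by side, and Cbx6 and Astn1 hold their matches from base 1215 on in the longest 3′ UTRs.

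All 10 genes were called higher (edgeR quasi-likelihood test, false discovery rate under 0.05) in each of the 4 KO comparisons, as their choice requires. Among all tested genes 5.88% were called higher in XY KO and 1.81% in XX KO gonads at E11.5, and 10.3% and 3.42% at E12.5. The median log2 fold change of the 10 genes was 0.64 in XY and 0.63 in XX at E11.5, and 0.86 in XY and 0.82 in XX at E12.5, where the median of all tested genes lay between -0.03 and 0.00. The smallest value was 0.33 (Cbx6, XY at E11.5) and the largest 2.28 (Kcnab1, XY at E12.5). A difference above 2-fold was seen in 2 genes in XY and 1 in XX at E11.5, and in 4 and 3 genes at E12.5, so most differences were modest in size. In each comparison, the 3 KO libraries lay above the 3 controls for all 10 genes, which was so for 14%, 12.7%, 19.8% and 13% of all tested genes (XY and XX at E11.5, then XY and XX at E12.5).

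In several comparisons the calls depended on single libraries. Without XX control replicate 2, or without XX control replicate 3, 4 of 10 genes stayed called in XX at E11.5 (Ano1, Cbx6, Nrbp1 and Tm4sf1), and without XX control replicate 1 or 2 only Mylip and Tm4sf1 stayed called in XX at E12.5. Without XX KO replicate 3, 5 genes stayed called in XX at E11.5 and 3 at E12.5, and without XY control replicate 2, 6 stayed called in XY at E12.5. Just inside the threshold, taking the largest of the 4 false discovery rates for each gene with a match, lay Pcdhb19 (0.0368), Cbx6 (0.0370) and Kcnab1 (0.0374). Just outside lay Acadm (0.0518), Vash2 (0.0588) and Slc24a3 (0.0641).

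**Figure D2:**
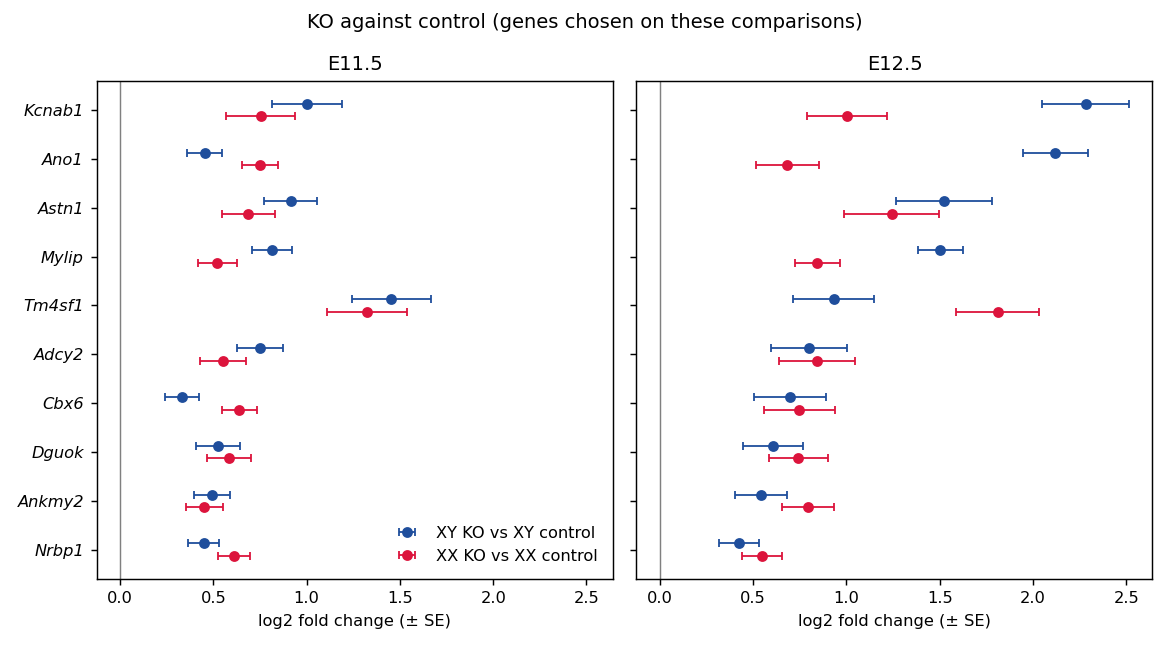
Log2 fold change of KO against control (x axis, bars are the SE of the fit, 3 libraries per group) for the 10 genes at E11.5 (left) and E12.5 (right), with XY in blue and XX in red. All 40 values lie above 0, from 0.33 to 2.28, and the XY and XX values stand farthest apart for Ano1, Kcnab1, Tm4sf1 and Mylip at E12.5.

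Ano1 and Kcnab1 belong to ion channels. Ano1 encodes a calcium-activated chloride channel of smooth muscle, secretory epithelia and interstitial pacemaker cells, and Kcnab1 a beta subunit that modifies voltage-gated potassium channels. At E12.5 Ano1 measured 28.9, 20.03 and 28.2 CPM in the XY controls and 104, 100.4 and 130 in XY KO gonads, a 4.35-fold difference (log2 2.12, SE 0.18). XX controls measured 56.7, 72.0 and 81.8 CPM and XX KO gonads 106, 125 and 107, a 1.61-fold difference (log2 0.68, SE 0.17). The XY controls were thus the low group, below every XX control, and the KO groups of the 2 sexes overlapped. At E11.5 Ano1 measured 98.3, 86.2 and 100.4 CPM in XX and 93.4, 108 and 108 in XY controls, against 157, 165 and 157 in XX KO and 135, 132 and 157 in XY KO gonads, so that the controls of the 2 sexes overlapped at that stage.

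Kcnab1 followed the same order at a lower level. It measured 4.48, 2.99 and 4.08 CPM in XY controls at E12.5, 18.9, 20.3 and 16.9 in XY KO, 7.94, 9.23 and 15.1 in XX controls and 22.0, 20.7 and 21.8 in XX KO gonads. The difference was 4.86-fold in XY (log2 2.28, SE 0.23) and 2.01-fold in XX (log2 1.00, SE 0.21). At E11.5 it measured 8.71, 6.92 and 9.68 CPM in XX and 6.25, 8.37 and 8.73 in XY controls, and between 11.4 and 17.3 in the 6 KO libraries. Kcnab1 and the antisense gene A330015K06Rik share 201 exon bases on opposite strands, and the strand setting of the counting is not given in the sources used here.

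Mylip and Nrbp1 act in protein turnover and traffic. Mylip is an E3 ubiquitin ligase that marks lipoprotein receptors for degradation, and Nrbp1 is a pseudokinase linked to ubiquitin ligases and vesicle traffic. Mylip was measured at 19.3, 16.3 and 18.3 CPM in XY controls at E12.5 and at 53.5, 52.9 and 46.7 in XY KO, a 2.84-fold difference (log2 1.504, SE 0.12), and at 33.4, 30.9 and 29.4 in XX controls and 54.3, 53.8 and 60.2 in XX KO gonads, a 1.80-fold difference (log2 0.84, SE 0.12). The 4 groups stood in the order XY control, XX control, XY KO and XX KO with no overlap between neighbours, although the last 2 groups were not called apart in the test given below. At E11.5 the log2 fold change was 0.81 in XY and 0.52 in XX. Nrbp1 had the smallest differences at E12.5, from 160, 159 and 150 CPM in XY controls to 214, 199 and 215 in XY KO (1.34-fold) and from 141, 161 and 163 in XX controls to 237, 204 and 237 in XX KO gonads (1.46-fold). Its control means were close in the 2 sexes within each stage, at 141 and 145 CPM at E11.5 and 155 and 156 CPM at E12.5 (XX, then XY). Nrbp1 shares 139 exon bases with the protein-coding gene Gm9970 on the opposite strand.

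Tm4sf1 and Astn1 encode membrane proteins. Tm4sf1 is a tetraspanin-like protein of endothelial and migrating cells, and Astn1 an adhesion protein of neuron migration. Tm4sf1 measured 2.63, 3.53 and 4.81 CPM in XX controls at E12.5 and 14.8, 10.5 and 13.04 in XX KO (3.51-fold, log2 1.81, SE 0.22), and 7.10, 6.11 and 6.43 in XY controls and 14.0, 12.8 and 10.8 in XY KO gonads (1.91-fold, log2 0.93, SE 0.22). Here the XX controls were the low group, the reverse of Ano1, Kcnab1 and Mylip. At E11.5 Tm4sf1 had the largest difference of the 10 genes, 2.74-fold in XY (controls 6.06, 4.35 and 7.35 CPM, KO 13.4, 17.3 and 17.8) and 2.51-fold in XX gonads (controls 5.17, 4.41 and 5.26, KO 14.4, 9.18 and 13.5).

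Astn1 measured between 12.9 and 18.5 CPM in the 6 controls and between 24.6 and 32.0 in the 6 KO libraries at E11.5. At E12.5 it measured 5.88, 3.86 and 5.65 CPM in XY controls, 15.9, 11.8 and 16.2 in XY KO, 5.10, 6.005 and 4.13 in XX controls and 8.38, 16.0 and 11.7 in XX KO gonads. The differences of 2.87-fold in XY (log2 1.52, SE 0.26) and 2.37-fold in XX (log2 1.24, SE 0.25) had the widest errors of the 10 genes.

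The other 4 genes differed from control by 1.26 to 1.79-fold. Adcy2, an adenylyl cyclase that makes cyclic AMP, went from 29.7 ± 8.13 to 51.4 ± 6.69 CPM in XY and from 26.0 ± 4.504 to 46.5 ± 7.40 CPM in XX gonads at E12.5 (mean ± SD, n = 3). Ankmy2, which helps adenylyl cyclases reach the primary cilium and so tunes Hedgehog signalling, went from 42.3 ± 3.03 to 61.5 ± 3.36 CPM in XY and from 36.7 ± 3.55 to 63.6 ± 11.1 CPM in XX. These differences corresponded to log2 0.80 and 0.84 for Adcy2 and 0.54 and 0.79 for Ankmy2, with SEs of 0.20 and 0.14. At E11.5 the same 2 genes differed by log2 0.75 and 0.49 in XY and by 0.55 and 0.45 in XX. Adcy2 shares 189 exon bases with the antisense gene Gm35161.

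Cbx6 is a chromobox subunit of Polycomb repressive complex 1, which binds methylated histone H3, and Dguok is the mitochondrial kinase that salvages purine deoxynucleosides. Cbx6 differed by log2 0.33 (SE 0.09) in XY and 0.64 (SE 0.09) in XX at E11.5, and by 0.70 and 0.75 (SE 0.19 in each) at E12.5, where XX controls spread from 99.9 to 153 CPM and XX KO gonads from 167 to 223. Cbx6 shares 563 exon bases on its own strand with Npcd, which had at most 11 counts in any library, so few reads were assigned to that neighbour. Dguok differed by log2 0.53 and 0.58 at E11.5 and by 0.61 and 0.74 at E12.5 (XY, then XX), between 16.7 and 29.1 CPM in the 12 controls and between 26.1 and 40.9 in the 12 KO libraries. Per kilobase of exon, the mean level in a group was highest for Nrbp1 (39.7 to 63.5 CPM per kb) and lowest for Kcnab1 at E11.5 (0.906 to 1.81). At E12.5 it was lowest for Astn1 (0.516 in XX controls to 1.49 in XY KO gonads), except in XY controls, where Kcnab1 stood at 0.448 CPM per kb.

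**Figure D3:**
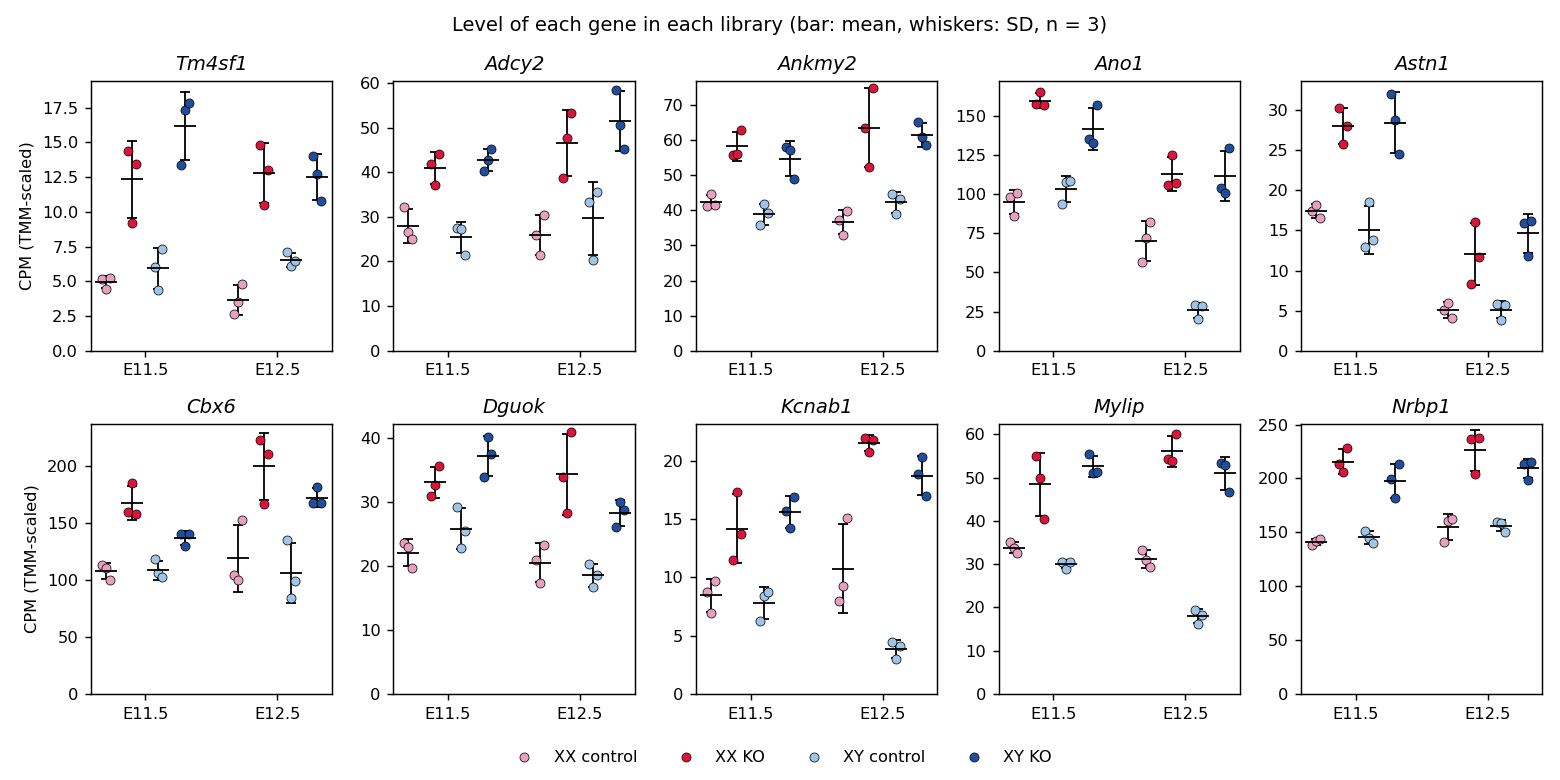
Level of each of the 10 genes in TMM-scaled CPM (y axis, from 0) in every library of the 4 genotypes at both stages, with 1 point per library, a bar for the mean and whiskers for the SD (n = 3). KO points lie above control points of the same sex and stage in every panel, and at E12.5 the XY controls are the low group for Ano1, Kcnab1 and Mylip, and the XX controls for Tm4sf1.

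The comparison of XX with XY gonads was not used to choose the genes, although it rests on the same libraries. It asks whether their level differs between the sexes with the cluster present or absent. At E12.5 XY KO gonads had low Sertoli and raised pre-granulosa markers, as given below. XX KO against XY KO is therefore not a comparison of ovary with testis development there. Between XX and XY controls, 4 of 10 genes were called at E12.5, against 23.8% of all tested genes (edgeR quasi-likelihood test, Benjamini-Hochberg adjusted). Ano1 was higher in XX by 1.45 on the log2 scale (SE 0.17, adjusted p = 2.13e-05), Kcnab1 by 1.48 (SE 0.23, adjusted p = 0.000253) and Mylip by 0.80 (SE 0.12, adjusted p = 0.000192), and Tm4sf1 was lower in XX, at -0.85 (SE 0.23, adjusted p = 0.0131). For all 4 the libraries of the 2 sexes did not overlap, as for 36.6% of all tested genes. Over 19 alternative settings the adjusted p of Ano1, Kcnab1 and Mylip reached at most 0.000149, 0.00218 and 0.00193, and that of Tm4sf1 reached 0.0606 without XX control replicate 1, where 3 genes stayed called. The other 6 genes differed by between -0.21 and 0.16, and the 95% interval was narrowest for Nrbp1 (-0.24 to 0.22) and widest for Astn1 (-0.57 to 0.56).

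At E11.5 none of the 10 genes was called between XX and XY controls by edgeR (0.886% of all tested genes), none had an unadjusted p under 0.05 and none was called by DESeq2. The differences ran from -0.26 (Tm4sf1) to 0.21 (Astn1) on the log2 scale.

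Between XX KO and XY KO gonads 0 of 10 genes were called by edgeR at either stage, where 0.0844% of all tested genes were called at E11.5 and 0.153% at E12.5. DESeq2 also called 0, and at an unadjusted p under 0.05 there was 1 gene at E11.5 (Cbx6, higher in XX KO by 0.29, 95% interval 0.10 to 0.49, adjusted p = 0.172) and 0 at E12.5. At E12.5 the difference was 0.01 for Ano1 (95% interval -0.34 to 0.37), 0.20 for Kcnab1 (-0.25 to 0.65), 0.14 for Mylip (-0.11 to 0.39) and 0.03 for Tm4sf1 (-0.41 to 0.48). The 3 XX KO libraries lay above the 3 XY KO libraries for Kcnab1 and Mylip, and libraries of the 2 sexes did not overlap in either direction for 20.1% of all tested genes. Over the 10 genes the differences at E12.5 ran from -0.28 (Astn1) to 0.28 (Dguok). Whether the KO changed the sex differences was not tested, because that change is built from the comparisons that chose the genes.

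**Figure D4:**
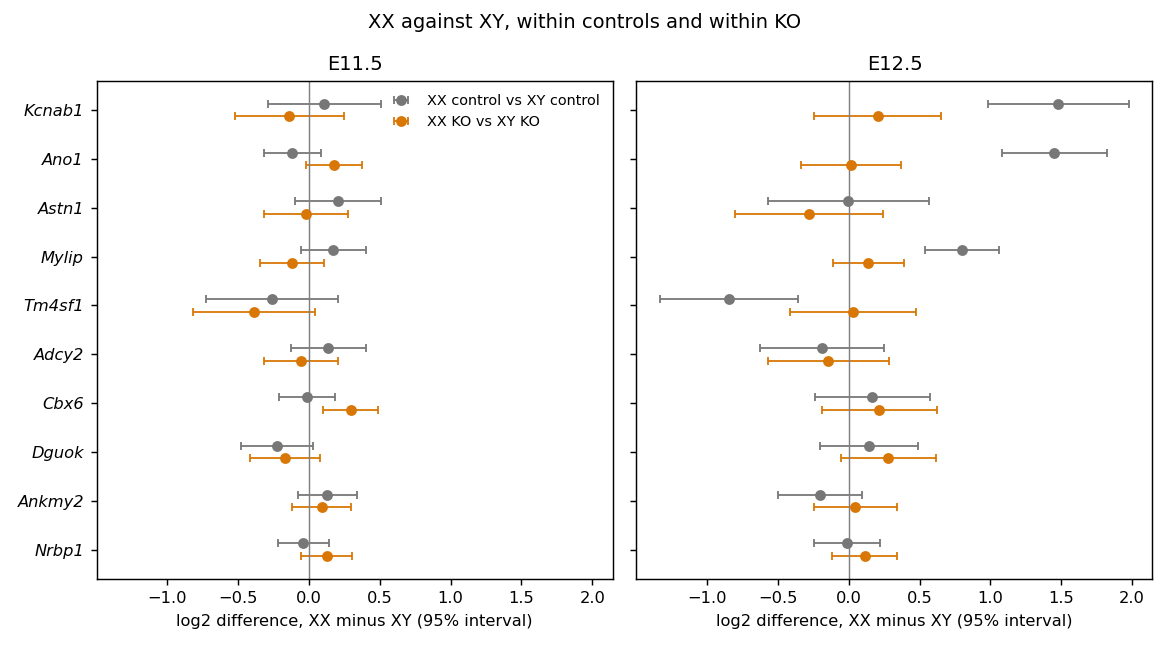
Difference between XX and XY gonads on the log2 scale (x axis, XX minus XY, bars are 95% intervals) for the 10 genes at E11.5 (left) and E12.5 (right), with controls in grey and KO in orange. At E12.5 Ano1, Kcnab1 and Mylip lie to the right of 0 and Tm4sf1 to the left in controls, and all KO intervals at that stage cross 0.

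The effect of the KO at E12.5, taken in XY minus in XX, was 1.44 (SE 0.24) on the log2 scale for Ano1, 1.28 (SE 0.31) for Kcnab1, 0.66 (SE 0.17) for Mylip and -0.88 (SE 0.31) for Tm4sf1. For the other 6 genes it lay between -0.25 and 0.28. At E11.5 it lay between -0.31 (Cbx6) and 0.29 (Mylip). These values are built from the comparisons that chose the genes and are given with no test.

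Markers of other cell types moved with the groups. The 6 Sertoli markers summed to between 1104 and 1752 CPM in XY controls at E12.5, between 17.2 and 34.3 in XY KO and between 9.54 and 13.4 in XX controls, and all 6 were called lower in XY KO gonads, as were all 5 fetal Leydig markers. The 6 pre-granulosa markers were all called higher in XY KO gonads at E12.5, with sums of 78.3 to 105 CPM in XY controls, 546 to 586 in XY KO and 668 to 919 in XX controls. Ano1, Kcnab1 and Mylip shared with the pre-granulosa markers that XY controls were lowest of these 3 groups, and differed from them in that XY KO gonads lay above XX controls. In XX KO gonads at E12.5 edgeR called 0 Sertoli, Leydig and pre-granulosa markers (1, 2 and 2 at an unadjusted p under 0.05, and 1 of each list by DESeq2). All 10 genes were higher there, as their choice requires. The part of these cell types in the levels was not tested.

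Markers of the mesonephros also moved at E12.5. Of 6 markers of mesonephric tubule and duct, Pax2, Pax8, Cdh16 and Wfdc2 were called higher and Lhx1 lower in XY KO gonads, and Pax8 and Cdh16 were called higher in XX KO gonads. The 6 summed to between 29.5 and 36.6 CPM in XY controls and 33.3 and 100.1 in XY KO, and to between 39.2 and 47.2 in XX controls and 62.1 and 137 in XX KO gonads. Cdh16, a kidney and Wolffian duct cadherin, measured at most 1.31 CPM in the 6 controls at that stage, 14.8, 59.7 and 76.3 in XX KO and 4.501, 24.3 and 49.1 in XY KO gonads. In XY KO replicate 1, with the least Cdh16 of the KO libraries, all 10 genes lay above every XY control with a median ratio to the control mean of 2.06, against 1.83 and 1.61 in replicates 2 and 3. In XX KO replicates 1, 2 and 3 all 10 genes lay above every XX control, with median ratios of 1.69, 1.75 and 2.01. The genes were chosen on KO against control, so these ratios are a description. With the library lowest in Cdh16 kept alone in each KO group, log2 fold changes were 0.48 to 2.33 in XY and 0.58 to 2.03 in XX gonads. This setting was chosen after seeing the data and assumes the lone library varies like the rest. The libraries kept still held 4.501 (XY KO) and 14.8 CPM (XX KO) of Cdh16, above every control, so the setting lowers Cdh16 without removing it. At E11.5, with the mesonephros in the sample, Cdh16 measured between 62.1 and 118 CPM in all 12 libraries, Pax8 was called lower in XY KO gonads, and edgeR called 0 mesonephric markers in XX (4, all lower, at an unadjusted p under 0.05 and 0 by DESeq2). The part of mesonephric tissue in the levels of the 10 genes was not tested.

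At E11.5, 5 of 6 Sertoli markers (median log2 fold change of the 6, -2.47) and 2 of 5 gonadal somatic markers (Nr5a1 and Gata4) were called lower in XY KO gonads, Foxl2 and Bmp2 higher and Wnt4 lower, and Fst and Irx3 lower in XX KO. At E12.5 Wt1, Lhx9 and Emx2 were called higher and Nr5a1 lower in XY KO gonads. Of 6 endothelial markers, relevant to Tm4sf1, edgeR called 0 at E11.5 (Pecam1, higher, at an unadjusted p under 0.05 in each sex, and 1 marker in XY by DESeq2), and only Pecam1 and Kdr, higher in XY KO, at E12.5. Germ cell markers were called lower at E12.5 (Pou5f1 and Dppa3 in XY KO, Pou5f1 and Kit in XX KO), the macrophage marker Csf1r lower in both KO groups at E11.5, and Cyp11a1 of the Leydig list lower in both at E11.5. Neuronal markers, relevant to Astn1, were split at E12.5 in XY KO (Stmn2 higher, Tubb3 lower), with Stmn2 lower in XY KO at E11.5, and edgeR called 0 of 3 tested erythroid markers in each comparison (1 at an unadjusted p under 0.05 in each, and 1 by DESeq2 in XX at E12.5). Mir17hg was higher in KO gonads by 2.111 and 2.296 on the log2 scale in XY and XX at E11.5 and by 1.89 and 1.22 at E12.5, which the counts over the whole host gene cannot turn into a check of the deleted part.

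Relatives of the 10 genes (other tetraspanin-like, adenylyl cyclase, anoctamin, chromobox and potassium channel beta genes, and the lipoprotein receptors that Mylip acts on) moved in both directions. Of 37 listed, 32 were tested. In XY gonads 2 were called higher and 4 lower at E11.5, and 4 higher and 6 lower at E12.5. In XX gonads 3 were higher and 1 lower at E11.5, and 0 were called at E12.5, where 11 had an unadjusted p under 0.05 and DESeq2 called 4. Of all tested genes, 6.81% in XY and 1.46% in XX at E11.5, and 10.3% and 1.85% at E12.5, were called lower in KO gonads. Their median log2 fold change was -0.09 and 0.08 at E11.5 and -0.11 and 0.13 at E12.5 (XY, then XX). The 12 relatives with a seed match had medians of -0.05, 0.27, -0.17 and 0.06 in the same order, and the 20 without of -0.13, -0.01, -0.04 and 0.13. The counts of relatives hung on single libraries. In XY at E11.5, leaving out control replicate 1 left 1 call, KO replicate 1 or 2 left 2, and control replicate 2 gave 10. In XX at E11.5, leaving out control replicate 1 or 3 or KO replicate 1 left 2 calls, and control replicate 2 or KO replicate 3 left 1. In XX at E12.5, leaving out control replicate 3 gave 4 calls, KO replicate 2 gave 3, KO replicate 1 gave 2, and XY control replicate 1 or XY KO replicate 3 gave 1.

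Only Tm4sf5, a close relative of Tm4sf1, was called in the same direction in at least 3 comparisons, and it held no match. It measured 10.2, 10.2 and 12.6 CPM in XY controls and 16.4, 15.02 and 18.05 in XY KO at E11.5 (log2 0.59, SE 0.15, adjusted p = 0.0190), 9.76, 8.27 and 9.26 in XX controls and 12.96, 15.4 and 17.2 in XX KO (log2 0.74, SE 0.15, adjusted p = 0.0141). At E12.5 it differed by 1.19 in XY (SE 0.23, adjusted p = 0.00165) and by 0.42 in XX (SE 0.22, adjusted p = 0.264). Other relatives, named after their values were seen, were called in 2 comparisons or in 1. The receptor gene Vldlr, with a match, was called higher in both sexes at E11.5 (log2 0.49 in XY and 0.74 in XX). At E12.5 it differed by 0.75 in XY and 1.38 in XX (SE 0.41 in each) and was not called. Kcnab3, with no match, was called lower in both sexes at E11.5 (-0.97 and -1.01) and differed by 0.09 and -0.02 at E12.5. Adcy7, with a match, was lower in XY KO at E12.5 by far (-2.62, SE 0.19, 9.01 against 55.0 CPM) and differed by -0.13 in XX. It was also lower in XX than in XY controls at that stage (-2.82).

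Genes long known as targets of the cluster were called in fewer comparisons than the 10 genes, which were chosen for being called in all. Of 10 listed, 9 were tested, and all 9 held a match. None was called the same way in at least 3 comparisons, and those named here were named after their values were seen. At E11.5 Tgfbr2, Thbs1 and Rbl2 were called higher in XY KO gonads (log2 0.45 to 0.61) and E2f1 and Rbl2 in XX KO gonads (0.38 and 0.41). At E12.5 Cdkn1a was called higher (1.68) and Thbs1 lower (-1.01) in XY, and Tgfbr2 higher (0.80) in XX KO gonads. Between controls at that stage Cdkn1a was also called higher in XX than in XY (1.58), and Thbs1 (-1.23) and Tgfbr2 (-0.47) lower. The medians of the 9 tested targets were 0.33, 0.26, 0.28 and 0.05 (XY and XX at E11.5, then at E12.5), against 0.64, 0.63, 0.86 and 0.82 for the 10 genes. In XY at E11.5, leaving out control replicate 1 or 3 or KO replicate 1 or 2 left 1 call, and control replicate 2 gave 5. In XX at E11.5, leaving out any of the 6 XX libraries or XY KO replicate 1 left 0, and replicate 3 of XY control or XY KO left 1. In XX at E12.5, leaving out control replicate 1 or 2 or KO replicate 3 left 0, and KO replicate 1 gave 2. Rbl2 restrains the cell cycle, Cdkn1a inhibits cyclin-dependent kinases, E2f1 drives S phase, Thbs1 is a matrix protein and Tgfbr2 a receptor of transforming growth factor beta.

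**Figure D5:**
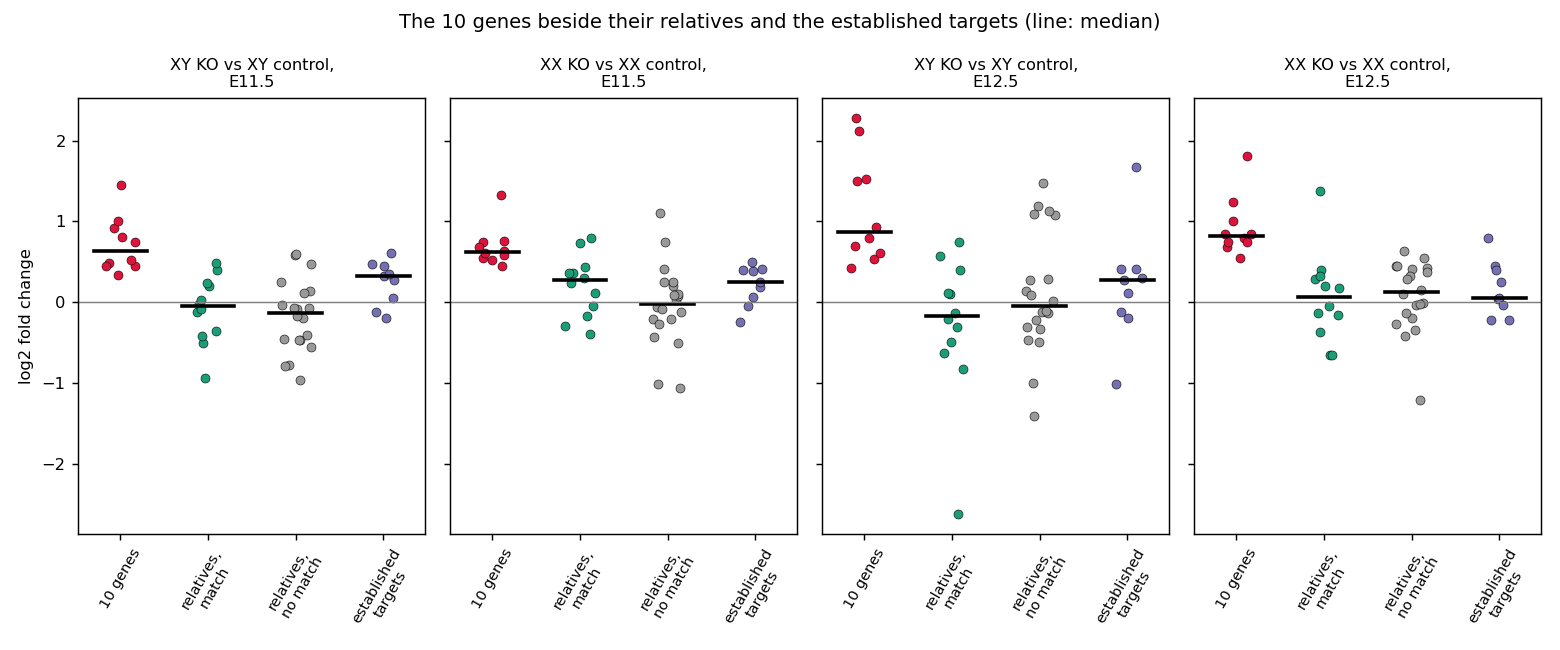
Log2 fold change of KO against control (y axis) in the 4 comparisons for the 10 genes, their tested relatives with (12) and without (20) a seed match, and the 9 tested established targets, with 1 point per gene and a line at the median. The 10 genes lie above 0 because they were chosen to, the relatives spread to both sides of 0 in every panel, and the medians of the established targets lie between 0.05 and 0.33.

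Over the 24 libraries, on log2(CPM + 1) values centred within each stage, the 10 genes varied together, with Pearson's r over the 45 pairs between 0.54 (Tm4sf1 and Ano1) and 0.96 (Ano1 and Kcnab1) and a median of 0.81. The points share the contrast that chose the genes, so these are descriptions. The 5 genes most like the mean of the 10 were Slc24a3 (r = 0.94), Il16 (0.94), H2-Q4 (0.94), Ccdc80 (0.92) and Pnma2 (0.92). Of these only Slc24a3, a sodium, potassium and calcium exchanger gene, held a match, where 35.3% of tested genes with a 3′ UTR did. H2-Q4 belongs to a family of near-identical class I genes, so its counts are uncertain. Of the 5 most like genes over the 12 XY libraries alone only Ccdc80 was among these, and over the 12 XX libraries none was.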

How the data were processed

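Whole-gene counts of reads were made by the authors, who mapped paired reads to mm10 and counted with align and featureCounts of Subread, versions not given in the sources used here. The deposited unit is raw counts per gene, with no normalization. Kits were NEBNext Ultra II Directional and TruSeq stranded mRNA. The 12 sample columns of the Foxl2 UTR mutant tables were not used, since the names of the mutant columns match gonad and eye samples alike.

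Per stage, the 12 libraries were fitted with edgeR 4.0.16 (limma 3.58.1, R 4.3.3): TMM scaling, genes with at least 1 CPM in at least 2 libraries (14217 and 14348), 1 mean per genotype, robust quasi-likelihood test, false discovery rate under 0.05. All 10 genes passed the filter at both stages. DESeq2 1.42.0 and other settings served as alternatives. The fit was tested on simulated counts. An exact permutation test of 3 against 3 libraries cannot go below p = 0.1, so model p-values are given. The labels do not say that libraries came from separate litters, and p-values measure the spread between these libraries.

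Seed matches were searched in 3′ UTRs of GENCODE release 21 (GRCm38) protein-coding transcripts, with mature microRNAs from RefSeq (GRCm38.p6). The genes, relatives, established targets and 10 marker lists were chosen with earlier results of these data known. Named beside the 10 genes were listed relatives or targets called the same way in at least 3 KO comparisons, the 5 most like genes and Mir17hg; other relatives and targets were named after their values were seen. Of the established targets 1 gene is not reported here, nor are some of the match sequences.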

Additional observations from a re-analysis of the deposited data

How the results depend on the processing

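The 10 genes were chosen on their direction in KO against control, which held under all 740 alternative values. With every KO library above every control, leaving out 1 library could hardly reverse it. In 735 the log2 fold change moved by less than the SD between replicates, and the 5 exceptions arose where the library lowest in Cdh16 was kept alone in each KO group at E12.5. The counts of calls were less stable when a library was left out. With 1 library left out, 9 to 10 of the 10 genes were called in XY and 4 to 10 in XX at E11.5, and 6 to 10 in XY and 2 to 10 in XX at E12.5. Relatives called ranged over 1 to 10 and 1 to 4 at E11.5 and 7 to 10 and 0 to 4 at E12.5, and established targets over 1 to 5 and 0 to 3, then 2 to 3 and 0 to 2. Genes called between controls at E12.5 ranged over 3 to 4, and the other comparisons of the sexes gave 0 throughout. Of established targets in XX at E11.5 (2 called), library size alone gave 0, no filter 1 and the replicate block 1. In XX at E12.5, DESeq2 called 4 relatives and 2 established targets, against 0 and 1, and the replicate block 1 relative. With the lowest Cdh16 library alone, log2 fold changes of the 10 genes were 0.48 to 2.33 in XY and 0.58 to 2.03 in XX gonads. Calls are not given for this setting, which leaves 1 library in each KO group. With 8-base matches alone, 4 of the 10 genes held a match, and with 6-base matches or the longest 3′ UTR all 10 did. Same-numbered libraries did not deviate together (correlations of -0.20 to 0.35 at E11.5 and -0.38 to 0.29 at E12.5), so the replicate numbers were not used as pairs. All 10 genes stayed called in the 4 KO comparisons with the replicate block. Scaled by library size alone, 9 stayed called in XY (not Cbx6) and 9 in XX (not Kcnab1) at E11.5. The causes were not tested. Of the 10 genes, Astn1, Kcnab1 and Tm4sf1 had the largest SEs at E12.5, and the part of depth in them was not tested.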
